A study of Homo sapiens with 12 samples.

Results

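The replication-dependent histone genes were taken as the rows of the count table whose symbol consists of HIST, a cluster number, H1, H2A, H2B, H3 or H4 and optional closing letters. This rule found 73 members among 56638 gene symbols: 6 for H1, 15 for H2A, 23 for H2B, 14 for H3 and 15 for H4. The symbol alone decided membership and no measured value was used. Rows such as HIST2H2AA3, whose symbol ends in a digit, fall outside the rule. The cells were 501Mel, an established human melanoma line with the activating V600E change in the kinase BRAF. They were treated for 48 h with vehicle (DMSO), with 1 μM vemurafenib (Vem, a BRAF inhibitor), with 5 μM resveratrol (RSV, used in the study as an antagonist of the aryl hydrocarbon receptor, AhR), with 10 nM TCDD (a dioxin that activates AhR), with RSV+Vem or with RSV+TCDD. The study asked how AhR and its ligands bear on the response of melanoma cells to BRAF inhibition, in 2 libraries per treatment. For RSV+TCDD the sample label gives 1 nM TCDD and the treatment protocol 10 nM. The labels do not say whether the 2 libraries of a treatment came from separate cultures, so p-values measure the spread between these libraries, which may be technical.

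Histones are the proteins around which DNA is wound: H2A, H2B, H3 and H4 form the core of the nucleosome and H1, the linker histone, binds where the DNA enters and leaves it. Their replication-dependent genes lie in clusters, mostly lack introns, and are transcribed mainly in S phase, when newly made DNA has to be packaged. Their mRNAs are the metazoan exception that ends without a poly(A) tail, in a short stem-loop bound by SLBP, after a cut directed by the U7 small nuclear RNP. Some of these genes can also be read past the stem-loop to a downstream polyadenylation site, and such polyadenylated histone mRNAs are known from differentiated and non-dividing cells. The libraries described here were made from RNA selected for poly(A) tails, so the counts measure the part of each gene's RNA that this selection captured, not the gene's whole output. In bulk samples, fewer cells with a transcript and less of it per cell cannot be told apart.

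The stem-loop is shown first because it is the element that replaces the poly(A) tail. Within 150 bases after the stop codon of the annotated coding transcripts, 62 of the 64 members with such a transcript (96.9%) held a perfect stem of 6 base pairs, opening with GG and closing with CC, around a loop of 4 bases. The 16 bases of stem and loop took only 8 forms over these 62 genes. All 13 H4 genes with a stem-loop had the stem GGCCCT, and all 49 of the others had GGCTCT. The sites below are from the hg19 (GRCh37) genome on the strand of each gene, 5′ to 3′, with 5 flanking bases in lower case and the stem-loop in capitals.
HIST1H2AC: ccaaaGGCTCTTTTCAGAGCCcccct
HIST1H2BK: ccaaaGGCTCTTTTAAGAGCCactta
HIST1H2BD: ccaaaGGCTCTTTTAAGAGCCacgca
HIST1H1C: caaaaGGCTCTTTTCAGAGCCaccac
HIST1H3E: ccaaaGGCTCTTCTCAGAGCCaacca
HIST2H4A: ccaaaGGCCCTTTTTAGGGCCgacca
HIST1H4H: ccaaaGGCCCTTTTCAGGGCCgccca
HIST1H3G: aaaaaGGCTCTTTTAAGAGCCgccta
They lie at chr6:26124892-26124917, chr6:27114140-27114165, chr6:26158810-26158835, chr6:26055967-26055992, chr6:26225819-26225844, chr1:149804591-149804616, chr6:26285354-26285379 and chr6:26271146-26271171, with HIST1H2AC, HIST1H2BD, HIST1H3E and HIST2H4A on the plus strand and the others on the minus strand. The first 7 belong to genes whose transcripts were counted, and the last belongs to HIST1H3G, an H3 gene at 0 counts in all 12 libraries. The presence of a stem-loop therefore did not separate counted from uncounted members.

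The members were rare in these libraries. They held 15762 counts in total over the 12 libraries, between 0.00264% and 0.0251% of a library's counts on genes. No count was recorded for 13 members in any library, 15 had between 1 and 10 counts over all libraries, and 63.3% of the members' counts fell on 5 genes. These were HIST1H2AC (2707 counts), HIST1H2BK (2563), HIST1H2BD (1641), HIST1H1C (1558) and HIST2H4A (1506). With 12 genes the share was 86.6%. Among the members at 0 were HIST1H1D, HIST1H2AD, HIST1H2BI, HIST1H3G and HIST1H4L. A count of 0 over 12 libraries allows a mean level of up to 0.0142 CPM, by counting error only, and does not bear on RNA of these genes that lacks a poly(A) tail.

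The members were also sorted by how far the annotation carries their coding transcripts past the stop codon. In 12 members a coding transcript continued for at least 150 exonic bases (long 3′ end), in 52 none did (short 3′ end), and 9 could not be classed, 5 of them pseudogenes and 4 not matched to a coding transcript on GRCh37. All 12 members with a long 3′ end also carried a stem-loop. Each of the 12 had counts, with a median of 174 over all libraries and a range from 7 to 2707. The 52 members with a short 3′ end had a median of 13.5 counts and a range from 0 to 2563, and 9 of them were at 0. Per kilobase of annotated exon, the median level was 0.438 CPM per kb for the long and 0.114 for the short class. CPM are read counts brought to a common library size, here with TMM factors. The long class held 42.6% of the members' counts and the short class 53.7%. HIST1H2BK, HIST1H1C and HIST2H4A, all short by their coding transcripts in GENCODE, were among the 5 most counted. The annotation release that was counted is not given, so the gene models behind the counts may differ from these classes.

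**Figure D1:**
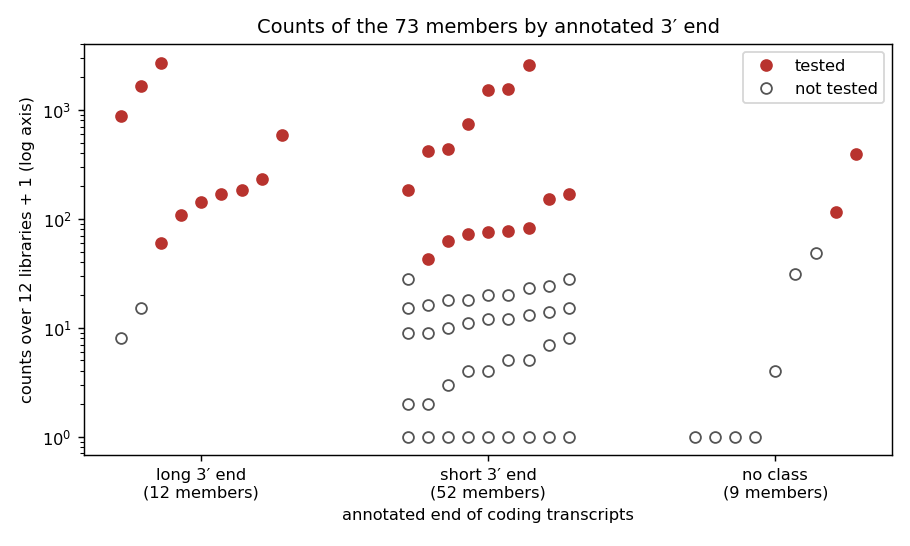
Counts of each of the 73 members summed over 12 libraries, plus 1 so that members at 0 can be drawn, on a log axis, by the annotated 3′ end of their coding transcripts (sideways position within a class has no meaning). Filled points passed the filter on low counts (27 members) and open points did not (46); the 12 members with a long 3′ end all have counts, and 9 of 52 with a short one are at 0.

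Depth ranged from 8378655 counts on genes in RSV+Vem replicate 2 to 25076925 in vehicle replicate 2. The RNA integrity numbers in the labels were lowest in the RSV+Vem libraries, 8.7 and 8.6, against 9.1 to 9.7 in the other 10. The cells carried the melanocyte lineage markers, 7 of 7 of which were tested, with a summed level from 11108 to 51552 CPM, and the markers of keratinocytes, fibroblasts, leukocytes and endothelium each summed to 2.77 CPM or less in every library. Counts were not corrected for PCR copies.

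The filter on low counts kept 16080 genes and 27 of the 73 members. It asked for 0.559 CPM in at least 2 libraries, on library sizes before the TMM factors that scale the levels printed here. Of the 27, 8 reached this level in all 12 libraries, and 4 (HIST2H2BF, HIST1H3B, HIST1H3D and HIST1H2AI) reached it in the RSV+Vem group only. Members of that last kind entered the test through the group in which they were high, so the counts of called members below are descriptions of the 27 and are given beside the share of all tested genes called in the same direction. The same selection applies wherever a member reached the minimum on only 1 side of a comparison. HIST2H2AC did so only in vehicle and TCDD libraries, and HIST1H4E only in RSV+Vem and RSV+TCDD libraries. HIST1H2BJ and HIST1H3H did so only in groups with RSV.

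HIST1H2AC, an H2A gene of the large cluster on chromosome 6, had the highest mean level of all members. Its levels were 1.72 and 1.62 CPM in the vehicle libraries, 2.84 and 1.69 with TCDD, 8.77 and 7.07 with RSV+TCDD, 6.21 and 4.68 with RSV, 30.4 and 31.5 with Vem, and 43.2 and 41.9 with RSV+Vem. The vehicle, RSV, Vem and RSV+Vem groups did not overlap, and the 2 Vem-treated groups lay apart from the remaining 8 libraries. GENCODE places HIST1H2AC at chr6:26124373-26139344 on the plus strand, where spliced transcripts join the coding exon to a second exon downstream of the stem-loop, and the table gives 1 value for both exons. HIST1H2BD, an H2B gene of the same cluster, stood at 1.52 and 0.688 CPM in vehicle, 1.31 and 2.06 with TCDD, 9.48 and 6.55 with RSV+TCDD, 6.63 and 4.99 with RSV, 8.48 and 8.84 with Vem, and 31 and 21 with RSV+Vem. For HIST1H2BD the groups with RSV alone, RSV+TCDD and Vem were close to each other, and RSV+Vem stood above all of them.

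HIST2H4A and HIST2H4B are copies of an H4 gene on chromosome 1, with 100% identical coding sequences of 309 bases. HIST2H4A held between 61.5% and 73% of their joint counts in every library. Reads from the shared sequence cannot be assigned, so this steady split does not measure the 2 genes separately. Both enter the numbers of called members below, and they are not independent. Their summed level was 1.21 and 1.82 CPM in vehicle, 2.98 and 2.72 with TCDD, 9.48 and 6.97 with RSV+TCDD, 8.26 and 5.94 with RSV, 9.11 and 10.7 with Vem, and 47.4 and 36.3 with RSV+Vem. The vehicle libraries were the lowest, the TCDD libraries came next, and the RSV+Vem libraries were far above the others. HIST1H4H, another H4 gene, was at 0.557 and 0.526 CPM in vehicle, 0.226 and 0.294 with TCDD, 1.17 and 1.79 with RSV+TCDD, 1.57 and 1.16 with RSV, 3.82 and 3.38 with Vem, and 7.56 and 6.30 with RSV+Vem.

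HIST1H1C, the only H1 gene tested, encodes linker histone H1.2. It was at 3.59 and 3.52 CPM in vehicle, 3.29 and 2.72 with TCDD, 8.36 and 5.09 with RSV+TCDD, 4.7 and 3.62 with RSV, 8.28 and 10.1 with Vem, and 25.9 and 15 with RSV+Vem. Its 2 RSV+Vem libraries differed more than those of any other group. HIST1H2BK, an H2B gene, had the highest vehicle level of all members, 7.84 and 8.42 CPM, and the smallest relative range of the 5 most counted. It was at 6.90 and 6.40 CPM with TCDD, 8.97 and 9.61 with RSV+TCDD, 10.9 and 10.5 with RSV, 18.9 and 19.4 with Vem, and 26.3 and 20.2 with RSV+Vem. HIST2H2BE, an H2B gene of chromosome 1 whose transcript runs 1801 bases past the stop codon, was at 1.42 and 1.5 CPM in vehicle, 6.82 and 7.68 with Vem and 12.4 and 7.53 with RSV+Vem, and between 1.69 and 4.26 CPM in the remaining libraries.

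**Figure D2:**
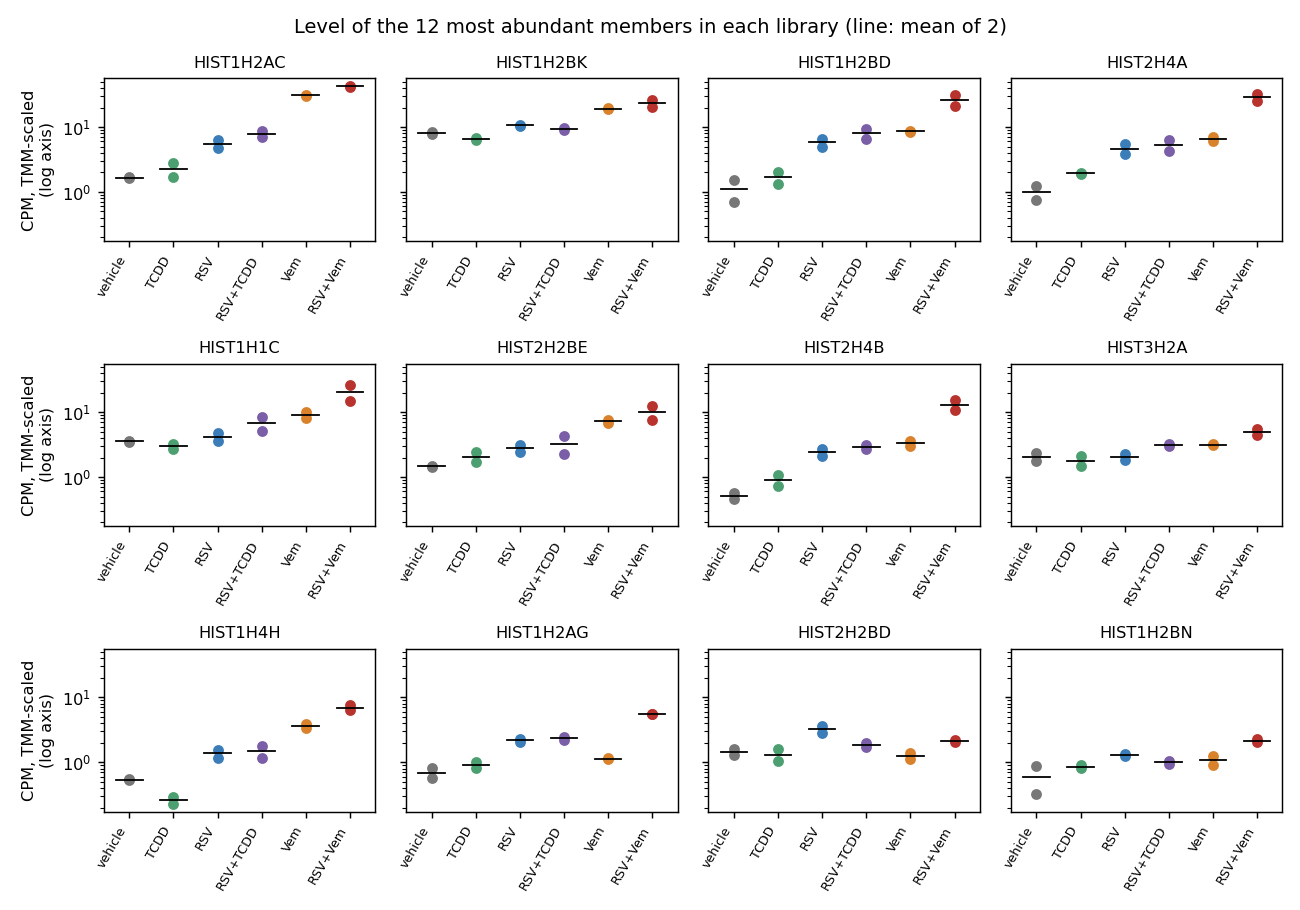
TMM-scaled CPM of the 12 most abundant members in each of 12 libraries, on a log axis, with 1 panel per gene, 2 points per treatment and a line at their mean. RSV+Vem has the highest mean in 11 of the 12 panels; HIST2H2BD, a pseudogene, is highest with RSV alone.

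Members of all 5 histone types were higher with Vem. Of the 27 members tested, 10 were higher than in vehicle (37%) and none was lower, against 25.5% of all tested genes higher and 26.9% lower. The increase was largest for HIST1H2AC, with a log2 fold change of 4.21 (SE 0.20, adjusted p = 1.98e-11), an 18.5-fold difference. HIST1H2BD followed with 3.01 (SE 0.34, adjusted p = 2.37e-06), HIST1H4H with 2.72 (SE 0.32, adjusted p = 1.18e-06), HIST2H4B with 2.67 (SE 0.33) and HIST2H4A with 2.66 (SE 0.29). Smaller increases were called for HIST2H2BE (2.30), HIST1H3E (1.95), HIST1H1C (1.36), HIST4H4 (1.27) and HIST1H2BK (1.24). HIST4H4 was not called by DESeq2 or without any 1 of the 4 libraries, and HIST1H3E not without vehicle replicate 2. HIST1H3E, an H3 gene with a long 3′ end, rose from 5 and 4 counts to 11 and 11. The median over the 27 was 0.89, beside -0.03 over all genes. Of the others of the 12 most abundant, HIST1H2AG (0.73, adjusted p = 0.0879), HIST3H2A (0.59, adjusted p = 0.0602), HIST1H2BN (0.89, adjusted p = 0.0958) and HIST2H2BD (-0.20, adjusted p = 0.63) did not pass. Scaled to the ERCC spike-ins, where the median of all genes moved to -0.68, 6 members were called, all higher (HIST1H2AC, HIST1H2BD, HIST1H4H, HIST2H4A, HIST2H4B and HIST2H2BE).

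TCDD changed no member by the same test: 0 of 27 were called in either direction, against 4.72% of all tested genes higher and 2.01% lower. At an unadjusted p below 0.05, 4 members passed, HIST2H4A (0.91, SE 0.34) and HIST2H4B (0.86, SE 0.39) upward and HIST4H4 (-1.23, SE 0.58) and HIST1H4H (-1.08, SE 0.51) downward, and DESeq2 also called 0. These 4 are H4 genes and were chosen after their values were seen. The counts of HIST1H4H were 5 and 4 with TCDD against 11 and 13 in vehicle, so the difference rests on few reads.

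RSV alone raised 10 of the 27 members (37%) and lowered 1 (3.70%), against 20.5% and 20.2% of all tested genes. The largest increases were those of HIST1H2BD (2.43, SE 0.35, adjusted p = 6.78e-05), HIST2H4B (2.21, SE 0.33), HIST2H4A (2.16, SE 0.30, adjusted p = 2.31e-05), HIST1H2AC (1.70, SE 0.23, adjusted p = 1.95e-05) and HIST1H2AG (1.68, SE 0.30, adjusted p = 0.000266). HIST1H2AG, an H2A gene with a short 3′ end, was at 0.810 and 0.566 CPM in vehicle, 2.05 and 2.31 with RSV and 1.11 and 1.15 with Vem. HIST1H4H (1.31), HIST1H2BN (1.17), HIST2H2BD (1.15) and HIST2H2BE (0.93) rose as well, and HIST1H3E rose by 1.51 on few counts. The calls of HIST2H2BE and HIST1H3E were lost without any 1 of the 4 libraries, that of HIST1H2BN without 3 of them, and DESeq2 called neither HIST1H3E nor HIST1H2BN. The call of HIST1H4H was lost without RSV replicate 1. The member that fell was the H4 gene HIST1H4K, with 15 and 20 counts in vehicle and 5 and 3 with RSV (log2 fold change -1.77, SE 0.60, adjusted p = 0.0248). DESeq2 did not call it, and 5 of 10 alternatives lost the call, with values from -2.27 to -1.36. Its coding sequence is 100% identical to that of HIST1H4J, so reads from it cannot be assigned. Together the 2 genes had 16 and 20 counts in vehicle and 6 and 4 with RSV. HIST1H1C (0.22, adjusted p = 0.586), HIST1H2BK (0.39, adjusted p = 0.0513) and HIST3H2A (-0.015, adjusted p = 0.97) were not called. With spike-in scaling 3 members remained called, HIST1H2BD, HIST2H4A and HIST2H4B, all higher, and without RSV replicate 1 or vehicle replicate 2 the number called was 7.

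Added to TCDD, RSV gave 12 members higher (44.4%) and 1 lower (3.70%), against 18.6% and 19.1% of all tested genes. HIST1H4H (2.52, SE 0.43, adjusted p = 0.000181) and HIST1H2BD (2.30, SE 0.32, adjusted p = 6.83e-05) rose the most among members with at least 4 counts in every library. HIST1H2BC (2.45, SE 0.59) and HIST1H2BJ (2.07, SE 0.49), a pair of H2B genes with long 3′ ends, also rose, as did HIST1H2AC (1.74), HIST2H4B (1.61), HIST2H4A (1.46), HIST1H2AG (1.33), HIST1H1C (1.13), HIST3H2A (0.75) and HIST1H2BK (0.48). The call of HIST1H2BK was lost without any 1 of the 4 libraries, and its direction turned under spike-in scaling, to -0.22. That of HIST3H2A was lost with DESeq2 and without 3 of the libraries, that of HIST1H1C without TCDD replicate 2 or RSV+TCDD replicate 1, and that of HIST1H2BC without TCDD replicate 1 or RSV+TCDD replicate 1. HIST1H3E had 1 and 1 counts with TCDD and 20 and 12 with RSV+TCDD. Against a floor of 3 counts per library it was at least 4.44-fold higher. The member that fell was HIST2H2AC, an H2A gene, with 16 and 10 counts under TCDD and 3 and 0 under RSV+TCDD, at least 4.97-fold lower against the same floor (adjusted p = 0.00518), a call lost without RSV+TCDD replicate 2. HIST2H2AC reached the filter on low counts only in vehicle and TCDD libraries, so its call and bound are descriptions.

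RSV+TCDD against RSV alone called 0 of the 27 members, against 3.89% of all tested genes higher and 2.28% lower. At an unadjusted p below 0.05, 7 members passed, among them HIST1H2AC (0.55, SE 0.19, adjusted p = 0.0932) upward and HIST2H2BD (-0.80, SE 0.27, adjusted p = 0.085) downward. DESeq2 called 0 here too. Without a filter on low counts HIST1H1C and HIST1H2AC were called higher, and with spike-in scaling, where the median of all genes moved by -1.02, HIST2H2BD (-1.83), HIST1H3H (-1.73) and HIST1H2BK (-1.23) were called lower.

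The highest levels were measured when RSV and Vem were combined. Against Vem, RSV+Vem had 18 of the 27 members higher (66.7%) and none lower, beside 19.1% and 18.7% of all tested genes. Against RSV, it had 17 higher (63.0%) and none lower, beside 11.3% and 13.4%. DESeq2 called 12 higher against Vem and 15 higher against RSV, and none lower. Its calls against Vem left out HIST2H2BF, HIST3H2A, HIST1H3B, HIST1H4E, HIST1H2BG and HIST1H2BN. These comparisons share the RSV+Vem libraries, and 4 members entered the test through them alone. Of the 4, HIST2H2BF, HIST1H3B and HIST1H3D are among the 18, and HIST1H3B and HIST1H3D are among the 17. Calls of that kind are descriptions and support nothing. Against Vem the H4 pair rose with log2 fold changes of 2.15 (HIST2H4A, SE 0.22, adjusted p = 5.72e-07) and 1.99 (HIST2H4B, SE 0.23, adjusted p = 2.45e-06). HIST1H2AG rose by 2.27 (SE 0.28, adjusted p = 5.02e-06), to 5.48 and 5.51 CPM from 1.11 and 1.15. HIST1H2BD rose by 1.61 (SE 0.25), HIST1H1C by 1.19 (SE 0.25), HIST1H4H by 0.96 (SE 0.24) and HIST1H2AC by 0.46 (SE 0.15, adjusted p = 0.0242), a call lost without any 1 of the 4 libraries. HIST1H2BK (0.30, adjusted p = 0.112), HIST2H2BE (0.50, adjusted p = 0.143) and HIST2H2BD (0.77, adjusted p = 0.0785) did not pass.

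Some of the calls against Vem rested on few counts, many of them for H3 genes. HIST1H3D had 32 and 13 counts with RSV+Vem, against 3 and 0 with Vem, at least 7.21-fold higher against the floor, and between 1 and 7 in the libraries of the remaining groups. HIST1H3B had 10 and 6 counts against 0 and 2, at least 2.75-fold higher, and HIST1H3H had 47 and 16 against 6 and 5 (2.45, SE 0.62). HIST1H3D and HIST1H3B reached the filter on low counts only in the RSV+Vem libraries. Their calls and bounds are therefore descriptions and support nothing. HIST1H4E, an H4 gene, had 15 and 3 counts against 3 and 0, and its RSV+Vem mean was at least 2.59-fold higher. RSV+Vem replicate 2 was itself at the floor of 3 counts, so this bound rests on replicate 1. The call was lost with DESeq2 and without RSV+Vem replicate 1 or Vem replicate 2. HIST1H4E reached the filter only in RSV+Vem and RSV+TCDD libraries, so its call is a description. Scaled to library size, HIST1H3B was at 0.532 and 0.675 CPM with RSV+Vem and at 0.283 or less in every other library, and HIST1H4E, at 0.798 and 0.337, overlapped other groups. Against RSV alone HIST1H2BG rose from 3 and 4 counts to 34 and 13 (3.05, SE 0.52, adjusted p = 0.000381), and HIST1H3B from 1 and 1 to 10 and 6, at least 3.57-fold, a call lost with DESeq2 and without any 1 of the 4 libraries. Further large increases were those of HIST1H2AC (2.97, SE 0.18, adjusted p = 1.72e-09), HIST1H4K (2.82, SE 0.56, a call lost without RSV+Vem replicate 1), HIST2H4A (2.65, SE 0.22) and HIST2H4B (2.45, SE 0.23). HIST1H4H (2.37), HIST1H1C (2.33), HIST1H2BD (2.19), HIST2H2BE (1.87), HIST1H2AG (1.33), HIST3H2A (1.29) and HIST1H2BK (1.15) rose too. HIST1H2BN (0.75, adjusted p = 0.126) and HIST2H2BD (-0.59, adjusted p = 0.137) did not pass.

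The comparison with Vem leaned on 1 library. Without RSV+Vem replicate 1, where the lone library was assumed to vary like the other groups, 7 of the 18 calls remained, HIST2H4A (1.95), HIST2H4B (1.71), HIST1H2BD (1.28) and HIST1H2AG (2.27) among them. HIST2H3A, not among the 27, was also called higher, and HIST4H4, with 3 counts in that library, lower (-2.35). With spike-in scaling 6 members were higher than with Vem and 7 higher than with RSV, none lower. The RSV+Vem libraries also had the lowest RNA integrity numbers, whose part in the result was not tested.

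**Figure D3:**
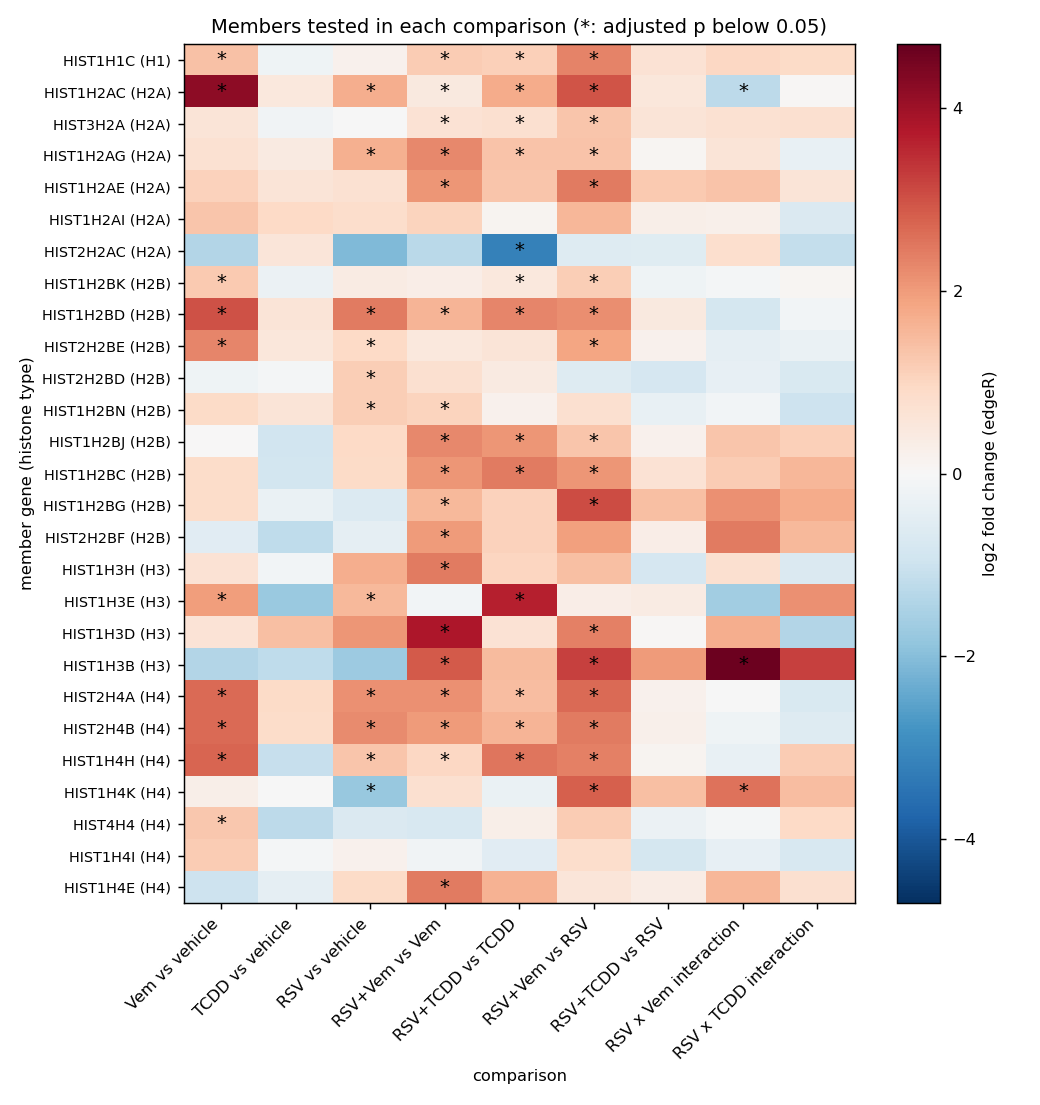
Log2 fold change (edgeR, color scale) of the 27 members tested, in rows by histone type and mean level, in 9 comparisons in columns; an asterisk marks an adjusted p below 0.05. The columns for TCDD against vehicle and RSV+TCDD against RSV carry no asterisk, and HIST1H2AC, HIST1H2BD, HIST1H4H, HIST2H4A and HIST2H4B carry one upward in 5 columns each.

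The effect of RSV in the presence of Vem was set against its effect in the absence of Vem by the interaction term. It called 2 members upward and 1 downward, 7.41% and 3.70% of the 27, beside 11.8% and 10.9% of all tested genes. HIST1H2AC had a negative term (-1.24, SE 0.28, adjusted p = 0.00383): RSV raised it by 1.70 without Vem and by 0.46 on top of Vem. HIST1H4K had a positive term (2.54, SE 0.75, adjusted p = 0.021), having fallen with RSV alone. Its coding sequence is the same as that of HIST1H4J. The other upward call was HIST1H3B, which entered the test only through the RSV+Vem libraries and had 3 counts or fewer in each Vem and RSV library, so that neither its fitted size nor its p is used. For HIST2H4A (-0.017, SE 0.28) and HIST2H4B (-0.22, SE 0.40) the term did not pass. The interaction of RSV with TCDD called 0 members (edgeR, 2 at an unadjusted p below 0.05; DESeq2 also 0), beside 0.0124% and 0.137% of all tested genes.

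Summed by histone type, every type had its highest level with RSV+Vem, and the order of the other treatments differed between types. The 73 members together reached 28.2 and 31.3 CPM in vehicle, 31.7 and 27.8 with TCDD, 69.6 and 55.0 with RSV+TCDD, 58.7 and 49.3 with RSV, 101 and 108 with Vem, and 235 and 182 with RSV+Vem. Relative to the vehicle mean, Vem raised the H2A sum 6.29-fold, the H4 sum 4.03-fold, the H2B sum 2.73-fold and the H1 sum 2.42-fold, and the H3 sum stood at 1.17 of it. RSV+Vem was at 12.4-fold for H4, 9.69-fold for H2A, 5.34-fold for H1, 5.15-fold for H3 and 4.96-fold for H2B. The H2A sum with Vem was mostly HIST1H2AC: without this gene all members together rose 2.62-fold with Vem, and with it 3.51-fold. H3, which forms a nucleosome in equal number with the other core histones, stayed the least counted type, at 6.92 CPM or less in every library. Sums over genes are descriptions and were not tested.

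**Figure D4:**
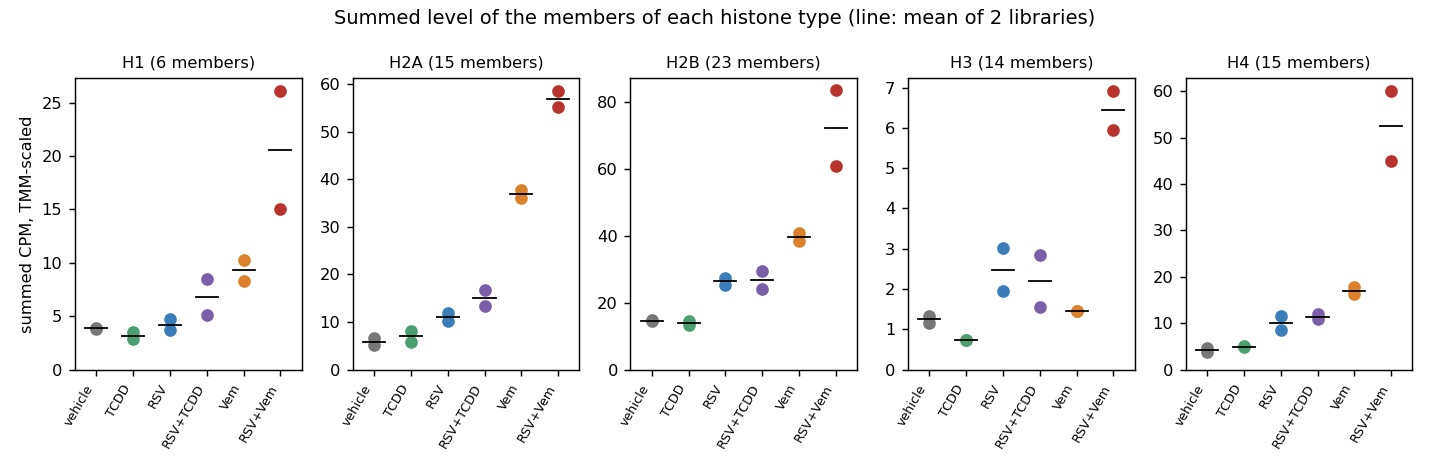
Summed TMM-scaled CPM of all members of each histone type per library, with 1 panel per type, an axis of its own from 0 in each, 2 points per treatment and a line at their mean. Every panel has its highest mean with RSV+Vem; H2A, H2B, H4 and H1 are higher with Vem than with RSV, and H3 is higher with RSV (3.01 and 1.94 CPM) than with Vem (1.46 and 1.46).

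By annotated end, the 12 members with a long 3′ end summed to 8.91 and 8.09 CPM in vehicle, 22.3 and 19.0 with RSV, 52.2 and 55.2 with Vem and 103 and 85.0 with RSV+Vem. The 52 with a short end summed to 17.8 and 21 CPM in vehicle, 32.1 and 27.1 with RSV, 46.6 and 51.1 with Vem and 126 and 92.9 with RSV+Vem. The long class thus went from the lower to the higher sum between vehicle and Vem, and HIST1H2AC carried most of that. Of those tested, Vem raised 4 of 10 with a long end and 6 of 15 with a short end, beside 25.5% of all tested genes. RSV added to Vem raised 8 of 10 and 9 of 15, beside 19.1%. The 8 include HIST2H2BF and the 9 include HIST1H3B and HIST1H3D, which entered the test only through RSV+Vem. HIST2H4A, HIST2H4B, HIST1H4H and HIST1H1C, which rose in both comparisons, have a short annotated end. Non-coding transcripts extend the exons of some of these well past the stem-loop. In GENCODE the exonic length is 1880 bases for HIST2H4A, 1880 for HIST2H4B and 2163 for HIST1H4H. It is 731 for HIST1H1C and 495 for HIST1H2BK, and the gene models that were counted may differ.

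Many H2A and H2B genes stand head to head and share the DNA between their starts. In 12 pairs of members, 11 of them an H2A with an H2B gene, the windows around the starts overlapped. The RNA captured from such partners was often unequal per kilobase of exon. HIST1H2AC averaged 9.07 CPM per kb over the 12 libraries and its partner HIST1H2BC 0.294. HIST3H2A averaged 1.54 and HIST3H2BB 0.0134, HIST1H2AG 4.30 and HIST1H2BJ 0.881, and HIST2H2BE 2.01 and HIST2H2AC 0.547. HIST1H2AK and HIST1H2BN, by contrast, were at 0.239 and 0.272, from 23 and 233 counts over annotated lengths of 496 and 4265 bases. The annotated length of HIST3H2BB was 5002 bases. These levels depend on GENCODE lengths, which may differ from those of the gene models that were counted. The pairs differ in their 3′ ends and in the sequence they share with other members, and the part of either was not tested.

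Promoters are shown for 3 members that rose with both Vem and RSV, since they differ in their motifs. RefSeq windows from 250 bases before to 50 after the start were available here for 63 protein-coding members. The octamer ATTTGCAT, a site for the Oct-1 factor (POU2F1) known from H2B promoters, was found on either strand in 26 of the 63 (41.3%), against 1.80% of all 27305 windows. It was in 14 of 18 H2B, 11 of 14 H2A and 1 of 12 H3 windows, and in none of 13 H4 or 6 H1 windows. CCAAT was found in 53 (84.1%, against 35.7%), and TATAAA in 41 (65.1%, against 12.0%). TTTCGCGC was in 12 (19.0%, against 0.546%) and TTTGGCGC in 0 (against 0.659%). Partners of a head-to-head pair share much of their window, so these are not independent counts. In the sequences, on the strand of the gene, the octamer, CCAAT and TATAAA are in capitals in either orientation.
HIST1H2AC: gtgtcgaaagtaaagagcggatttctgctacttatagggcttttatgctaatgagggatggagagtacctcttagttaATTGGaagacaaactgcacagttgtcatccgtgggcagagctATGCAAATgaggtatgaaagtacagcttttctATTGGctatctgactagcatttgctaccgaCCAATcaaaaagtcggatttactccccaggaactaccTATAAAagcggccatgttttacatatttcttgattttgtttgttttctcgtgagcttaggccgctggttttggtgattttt
HIST2H2BE: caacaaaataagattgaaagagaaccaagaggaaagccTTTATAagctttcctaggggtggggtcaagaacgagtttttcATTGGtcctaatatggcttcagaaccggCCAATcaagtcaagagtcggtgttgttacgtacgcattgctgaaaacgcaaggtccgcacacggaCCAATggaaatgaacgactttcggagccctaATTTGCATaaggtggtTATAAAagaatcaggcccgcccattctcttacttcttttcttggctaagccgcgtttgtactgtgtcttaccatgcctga
HIST2H4A: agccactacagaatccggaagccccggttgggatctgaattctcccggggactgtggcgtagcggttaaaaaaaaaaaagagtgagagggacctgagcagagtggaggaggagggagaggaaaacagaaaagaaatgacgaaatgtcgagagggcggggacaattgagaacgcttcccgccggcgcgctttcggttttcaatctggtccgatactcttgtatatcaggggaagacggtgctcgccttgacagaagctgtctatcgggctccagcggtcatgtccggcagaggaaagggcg
In GRCh38.p14 these are chr6:26123922-26124221 (plus strand), chr1:149886633-149886932 (minus strand) and chr1:149832407-149832706 (plus strand). The windows of HIST1H2AC and HIST2H2BE hold all 3 motifs, and that of HIST2H4A holds none. Of tested members with the octamer, Vem raised 3 of 11, and of those without it 7 of 15, beside 25.5% of all tested genes. For RSV+Vem against Vem the numbers were 8 of 11 and 10 of 15, beside 19.1%. They include HIST2H2BF, HIST1H3B and HIST1H3D, which entered the test only through RSV+Vem.

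Genes that serve histone production mostly fell with Vem, and more of them rose than fell when RSV was added to Vem. The list of histone transcription and mRNA processing genes held 18 genes, all tested. Vem raised 2 of the 18 and lowered 11, beside 25.5% and 26.9% of all tested genes. SLBP, which binds the stem-loop, was at 79.6 and 84.2 CPM in vehicle and 33.9 and 37.1 with Vem (log2 fold change -1.21, SE 0.099, adjusted p = 1.35e-08). NPAT, the coactivator that directs histone gene transcription in S phase, was at 57.1 and 48.4 CPM in vehicle and 21 and 21.4 with Vem (-1.31, SE 0.13, adjusted p = 1.63e-07). CASP8AP2 (-1.50), a component of histone locus bodies, fell as well, and MIF4GD, which links SLBP to translation, rose (0.58, SE 0.15). RSV alone raised 2 of the 18 and lowered 5, beside 20.5% and 20.2% of all tested genes. SLBP (0.051, adjusted p = 0.697) and NPAT (-0.13, adjusted p = 0.417) were not called. Added to Vem, RSV raised 6 and lowered 1, beside 19.1% and 18.7%. SLBP rose to 59.3 and 60.3 CPM (0.75, SE 0.10, adjusted p = 1.35e-05) and NPAT to 32.6 and 41.6 (0.80, SE 0.14, adjusted p = 0.000154). With RSV+Vem both remained below their levels with RSV alone (SLBP -0.51, adjusted p = 0.000993; NPAT -0.39, adjusted p = 0.0335). TCDD called 0 of the 18, for SLBP at -0.19 (adjusted p = 0.259) and NPAT at -0.013 (adjusted p = 0.968). In RSV+TCDD against TCDD, 3 of the 18 were higher and 3 lower, shares near those of all tested genes (18.6% and 19.1%).

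Of 16 genes of S phase entry and replication, Vem lowered 15 and raised none, beside the 10 histone members it raised. Of all tested genes it lowered 26.9% and raised 25.5%. CCNE2 (cyclin E2, -1.80), MCM7 (a subunit of the replicative helicase, -1.74) and CCNA2 (cyclin A2, -1.73) fell the most. RSV alone raised 5 and lowered 6, beside 20.5% and 20.2% of all tested genes. CDT1 (0.77) and CDC6 (0.66), both of which load the helicase, were among those that rose. RSV added to Vem raised 12 and lowered 1 (CDK2, -0.56), beside 19.1% and 18.7% of all tested genes. RSV+Vem against RSV lowered 13 and raised none, beside 13.4% and 11.3%. The sum of the 16 was 4137 and 4456 CPM in vehicle, 2603 and 2610 with Vem, 3795 and 3838 with RSV, and 2775 and 2919 with RSV+Vem. CDK2 alone, which did not fall with Vem, made up 1772 and 1560 CPM of the sum in vehicle and 1683 and 1600 with Vem, so the sum is weighted by that gene. The histone sum and this sum therefore stood in opposite order between vehicle and Vem and between RSV and RSV+Vem. Between Vem and RSV+Vem they stood in the same order, both higher with RSV+Vem. TCDD called 1 of the 16, CCNE2 (-0.56, adjusted p = 0.0484), beside 4.72% of all tested genes higher and 2.01% lower.

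Replacement histones, which can be deposited outside S phase, mostly fell with Vem. Of 10 tested, 0 rose and 7 fell, beside 25.5% and 26.9% of all tested genes. Among those that fell were CENPA, the centromeric H3 (-2.21), and H2AFZ, which encodes H2A.Z (-1.16, from 816 and 926 CPM to 382 and 395). H2AFX, the gene of H2A.X, whose mRNA can end either way, fell with Vem (-0.76) and rose when RSV was added to Vem (1.08, SE 0.20). H3F3B, an H3.3 gene, was at -0.062 with Vem (adjusted p = 0.582) and rose by 0.51 in RSV+Vem against Vem. With RSV alone 0 of 10 rose and 4 fell, beside 20.5% and 20.2% of all tested genes. Of 14 histone chaperones, proteins that escort histones to DNA, Vem lowered 12 and raised none, beside 26.9% and 25.5% of all tested genes. ASF1B was at -1.81 and NASP at -1.46. RSV alone raised 3 (ASF1B, TONSL and ASF1A) and lowered 3, shares near those of all tested genes (20.5% and 20.2%). RSV added to Vem raised 9 and lowered 2, beside 19.1% and 18.7% of all tested genes. The 2 tested histone rows outside the rule, HIST2H2AA3 and HIST2H2AA4, were not called with Vem (1.06 and 0.98) or RSV (1.46 and 0.97) and rose in RSV+Vem against Vem (2.21 and 1.68) and against RSV (1.80 and 1.69).

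RNAs that have no poly(A) tail at all, such as RN7SK and RN7SL1, give a rough view of carry-over, the unselected RNA that stayed in a library. Their own expression can also differ between treatments, and the 2 were not separated. The 18 listed summed to 7.34 and 17.8 CPM in vehicle, 17.1 and 7.87 with TCDD, 5.73 and 4.57 with RSV+TCDD, 6.09 and 14.8 with RSV, 4.59 and 7.22 with Vem, and 14.6 and 14.3 with RSV+Vem. The libraries of vehicle, of TCDD and of RSV differed from each other by more than those of RSV+Vem, and vehicle replicate 2, TCDD replicate 1 and RSV replicate 2 were at or above the RSV+Vem level. Of the 5 tested, RSV+Vem against Vem called 1 (RMRP, 2.17, adjusted p = 0.0276) higher, beside 19.1% of all tested genes. Vem against vehicle called 0 in either direction, beside 25.5% higher and 26.9% lower. RSV+TCDD against TCDD called 3 lower, beside 19.1%. Between Vem and RSV+Vem these RNAs and the histones were both higher, and the part of such carry-over in that comparison was not tested.

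**Figure D5:**
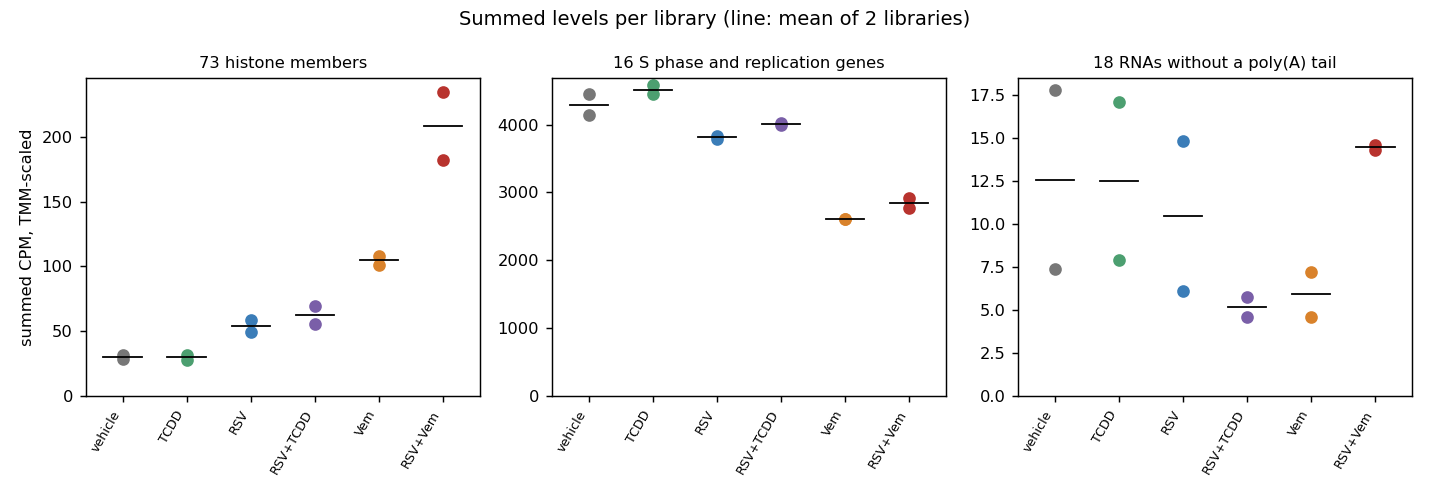
Summed TMM-scaled CPM per library of the 73 histone members, of 16 genes of S phase entry and replication and of 18 RNAs without a poly(A) tail, each with its own axis from 0, 2 points per treatment and a line at their mean. From vehicle to Vem the histone sum rises (28.2 and 31.3 to 101 and 108 CPM) and the S phase sum falls (4137 and 4456 to 2603 and 2610 CPM). From Vem to RSV+Vem both rise, the histone sum to 235 and 182 CPM and the S phase sum to 2775 and 2919 CPM.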

How the data were processed

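RNA of 501Mel cells was sequenced in 12 libraries, 2 per treatment. The authors prepared stranded poly(A)-selected libraries, aligned read pairs with STAR 2.4.0a to hg19 and counted primary alignments per gene symbol with featureCounts (Subread 1.5.0-p3), and the deposited values are raw counts. Reads shared by near-identical histone genes may therefore be placed on 1 copy, and exons of a gene share 1 value. The annotation release is not given in the sources used here. Control sequences were removed, genes were kept with filterByExpr by group, and edgeR 4.0.16 (R 4.3.3, TMM, robust quasi-likelihood F test, 1 term per group, Benjamini-Hochberg over 16080 genes) was used, with calls at an adjusted p below 0.05. Values in parentheses after genes are log2 fold changes, and every adjusted p is from this fit unless another is named. SE is an approximate standard error, the size of the log2 fold change divided by the square root of its F statistic. Where neither library of a group exceeded 3 counts, folds between groups are given as bounds against 3 counts per library; a fitted interaction of such a gene is no bound. The script was tested on simulated data. Gene positions, 3′ ends and stem-loops came from GENCODE and the genome on GRCh37, promoters from RefSeq on GRCh38.p14.

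Replicate numbers did not pair the libraries: over 15 pairs of groups, differences between replicates correlated above 0.1 in 6 and below -0.1 in 5. Alternatives were DESeq2 1.42.0, RLE factors, ERCC spike-in scaling, other filters, a replicate block, only the libraries compared, and leaving out each library. Named are the 12 members with the highest mean level and, per comparison, up to 5 called members with the largest rise and the largest fall, likewise up to 3 genes of each list, SLBP and NPAT always; others named as called or not called were chosen after their values were seen. Members and lists were chosen with earlier results of these data known.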

Additional observations from a re-analysis of the deposited data

Results flagged for a closer look

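For 3 members the effect of RSV differed between cells with and without Vem by the interaction term (edgeR). HIST1H2AC had a term of -1.24 (adjusted p = 0.00383), called under 14 of 15 alternatives with values from -1.43 to -1.02, and not called with spike-in scaling (adjusted p = 1). HIST1H4K had a term of 2.54 (adjusted p = 0.021), called under 9 of 14 alternatives with values from 1.86 to 3.15 and adjusted p from 0.00549 to 0.554. HIST1H3B had a fitted term of 4.60, called under 6 of 13 alternatives, but it reached the filter on low counts only in the RSV+Vem libraries, the group that makes the term positive, and had 0 and 2 counts with Vem and 1 and 1 with RSV, so the size is no bound and the call supports nothing.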

How the results depend on the processing

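Counts of called members are given as higher and lower together. Spike-in scaling moved most of them: 6 for Vem against vehicle (10 in the main analysis), 3 for RSV against vehicle (11), 6 for RSV+Vem against Vem (18), 3 for RSV+TCDD against TCDD (13), 7 for RSV+Vem against RSV (17), 3 for RSV+TCDD against RSV (0) and 0 for the interaction of RSV and Vem (3). It moved the median of all genes by up to -1.02, and it turned HIST1H2BK in RSV+TCDD against TCDD to -0.22 (adjusted p = 0.725). With at least 10 counts in every library only 9 members were tested, and the counts were 7 for RSV against vehicle, 6 for RSV+Vem against Vem, 7 for RSV+TCDD against TCDD, 8 for RSV+Vem against RSV and 1 for the interaction of RSV and Vem. Without a filter, RSV+TCDD against RSV called 2, and with DESeq2 the interaction of RSV and Vem called 1. DESeq2 also gave 9 for Vem against vehicle, 8 for RSV against vehicle and 12 for RSV+Vem against Vem. It gave 12 for RSV+TCDD against TCDD and 15 for RSV+Vem against RSV. Leaving out each library, with the lone library left assumed to vary like the other groups, gave 7 to 9 calls for RSV against vehicle (7 without vehicle replicate 2 and 7 without RSV replicate 1), 9 to 18 for RSV+Vem against Vem (9 without RSV+Vem replicate 1), and 1 to 5 for the interaction of RSV and Vem (5 without vehicle replicate 1, 1 without Vem replicate 1, 1 without RSV replicate 2). The cause of these changes was not tested, apart from the smaller number of members tested under the stricter filter. With the replicate block the counts were 10 for Vem against vehicle, 12 for RSV against vehicle, 17 for RSV+Vem against Vem and 13 for RSV+TCDD against TCDD, all within 1.5 times the main ones.

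Of 1401 alternative values for the named members, 1284 stayed on the same side of the threshold, 100 lost the call and 16 gained one. In 1, called in the main analysis, the direction reversed. Changes of direction between values that were both uncalled were not counted. Members with few counts limit what these libraries can show: 46 of 73 did not pass the filter and were not tested.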
